A study of Mus musculus with 6 samples.

Results

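Ctla2a and Ctla2b, a pair of cathepsin inhibitor genes, and 4 cathepsin genes, Ctsl, Ctsb, Ctsd and Ctss, were described on 6 Clariom D Mouse arrays. The genes were found as every probe whose annotation names one of them, and each of the 6 genes was named by 1 probe. Of these, 5 belong to the 30142 genes that have a probe of their own. The probe that names Ctsd also names Ifitm10, so its signal cannot be given to either gene, and it is called the Ctsd/Ifitm10 probe throughout. Ctla2a and Ctla2b were chosen by earlier results of these data, the log2 difference of platelets from progenitors and, for Ctla2a, that of CTC41-EVs from PBS in platelets. Their values in these contrasts are therefore given as a description, with no test.

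The arrays held RNA of mouse platelets from blood or of bone marrow cells that the labels call megakaryocyte progenitors, the precursors of the cells that shed platelets. Each cell type had 1 array labelled CTC41.5G-EVs, 1 labelled CTC41-EVs and 1 labelled as the PBS control, a phosphate-buffered saline, each from a group of mice whose dose and time are not in the labels. EVs commonly stands for extracellular vesicles. The sources used here do not say what CTC41 and CTC41.5G mean, nor the strain, age and number of the mice. Each array carried RNA pooled from several mice, with no replicate of any group. Magnetic beads were used on some samples to remove white and red blood cells, without a record here of which. The labels name a mirVana and an RNeasy kit for every sample, so which extraction was used is unclear. With pooled RNA, fewer cells of a type and less RNA per cell cannot be told apart.

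The Ctla2 proteins are small and resemble the propeptide of cathepsin L, the part of a cysteine cathepsin that blocks its active site until it is cut off. They were first described as transcripts of activated mouse T lymphocytes and mast cells, and they inhibit cysteine proteases of the cathepsin L kind. Cathepsins L, B and S are cysteine proteases of lysosomes, whereas cathepsin D is an aspartic protease, a class with another catalytic mechanism.

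In the annotation of mouse chromosome 13, Ctla2b and Ctla2a lie close together, with only Tpbpb between them among protein-coding genes. Their promoters are shown because the genes are paralogs that lie close together. Sequences are from RefSeq, build GRCm38.p6, both on the minus strand, Ctla2b at chr13:60897398-60897697 and Ctla2a, from the upstream of its 2 annotated starts, at chr13:60936576-60936875. Each runs from 250 bases before to 50 bases after the annotated start, 5′ to 3′, and capitals mark the letters of GATA and ETS motifs.
Ctla2b: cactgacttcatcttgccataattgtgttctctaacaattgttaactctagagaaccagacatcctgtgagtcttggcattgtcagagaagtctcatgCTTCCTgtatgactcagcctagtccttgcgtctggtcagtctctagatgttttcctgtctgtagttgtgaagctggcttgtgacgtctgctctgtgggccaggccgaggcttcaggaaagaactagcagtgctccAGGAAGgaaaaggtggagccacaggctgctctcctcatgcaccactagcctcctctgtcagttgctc
Ctla2a: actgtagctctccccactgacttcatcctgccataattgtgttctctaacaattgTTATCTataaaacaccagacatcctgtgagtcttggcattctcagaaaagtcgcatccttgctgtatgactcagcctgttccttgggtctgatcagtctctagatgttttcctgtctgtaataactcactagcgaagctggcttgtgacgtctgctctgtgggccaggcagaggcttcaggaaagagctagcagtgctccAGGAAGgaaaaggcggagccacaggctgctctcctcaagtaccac
Over the 278 bases that could be aligned, 255 (91.7%) were identical, with 23 substitutions and 8 gap columns, and the longest identical run was 36 bases. Both strands were searched for motifs of GATA and ETS factors, families with members that act in megakaryocytes. A GATA match was the word AGATAA, or instead the word AGATAG, or else the word TGATAA, or lastly the word TGATAG. An ETS match was the word AGGAAG, or instead the word CGGAAG. The word AGGAAG stood once in each promoter, at -17 from the start of Ctla2b and at 5 from that of Ctla2a. Ctla2b held 1 more ETS match, CTTCCT as printed, at -152, and no GATA match. Ctla2a held 1 GATA match, TTATCT as printed, at -195. The window of the downstream start of Ctla2a shared 241 bases with this one and held AGGAAG at -54. It began inside the word TTATCT, so it held no whole GATA match. That absence comes from the edge of the window and not from another sequence. An ETS match was present in 46.5% and a GATA match in 29.8% of all 32851 promoters of this length, so these matches are common.

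The deposited values are log2 signals, and in the text every level and every difference is on that scale. The median over all probes was at most 4.05 on the platelet arrays and 4.38 to 4.45 on the progenitor arrays. All 11 measured megakaryocyte and platelet markers were called higher in platelets, where their summed linear signal ran from 17146 to 24533, against 543 to 598 in progenitors. All 10 neutrophil markers were called lower in platelets, with a summed signal of 387 to 444 in platelets and 1745 to 1976 in progenitors, 6 of them when arrays were centred on olfactory receptor genes, called the olfactory receptor scale. Of 5 erythroid markers tested, 3 were also called higher in platelets and 0 lower, among them Alas2 at 9.85 against 5.10 in progenitors. Of 6 mast cell and basophil markers tested, 5 were called lower and 0 higher. Each other marker list had at most 2 genes called higher and at most 2 lower. Over all features tested 16.2% were called higher and 25.7% lower. On the progenitor arrays the granule genes Ngp and Mpo stood at 8.76 and 8.12, and the megakaryocyte genes Pf4 and Itga2b at 6.44 and 6.51.

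Ctla2a and Ctla2b stood far higher in platelets than in progenitors under every treatment. Ctla2b had 12.16 with CTC41.5G-EVs, 12.29 with CTC41-EVs and 11.98 with PBS in platelets, against 5.31, 5.26 and 4.69 in progenitors in the same order of treatments. The 3 platelet arrays lay within 0.30 of each other and the groups were far from overlapping. Ctla2a had 12.18, 12.48 and 11.69 in platelets, against 6.16, 5.81 and 5.12 in progenitors. Here the PBS array was the lowest of its cell type in both, as it was for Ctla2b.

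**Figure D1:**
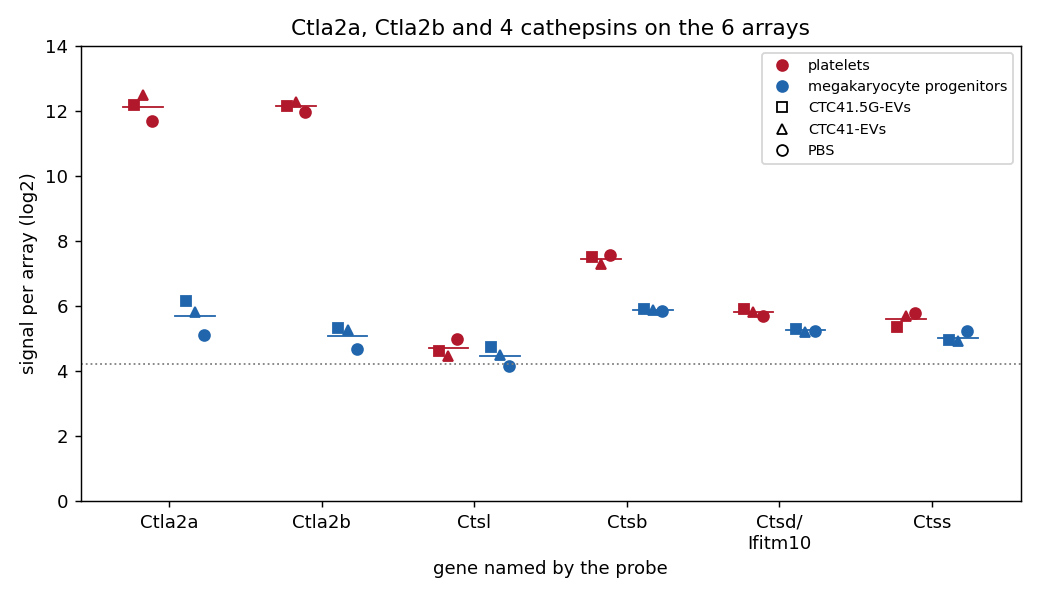
Log2 signal of Ctla2a, Ctla2b and 4 cathepsin probes on each array, platelets in red left of progenitors in blue. Symbols stand for the treatment, short lines for the mean of 3 arrays, and the dotted line for the floor of 4.23. Both Ctla2 genes lie near 12 in platelets and between 4.69 and 6.16 in progenitors.

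The means were 12.14 ± 0.15 in platelets and 5.09 ± 0.34 in progenitors for Ctla2b (SD, n = 3 arrays that differ in treatment), a difference of 7.06 with SE 0.19, or 133-fold. For Ctla2a they were 12.12 ± 0.40 and 5.70 ± 0.53, a difference of 6.42 with SE 0.21, or 85.7-fold. Among 18876 features whose mean reached the floor of 4.23, the 50th percentile of all probes, Ctla2b ranked first and Ctla2a seventh by the size of the difference upwards. The differences within a treatment were 6.85, 7.03 and 7.29 for Ctla2b and 6.02, 6.67 and 6.57 for Ctla2a, for CTC41.5G-EVs, CTC41-EVs and PBS. The difference of Ctla2a was thus smallest between the CTC41.5G-EVs arrays, and so was that of Ctla2b. The median of all features was -0.26 as deposited and 0.05 to 0.45 under other scalings of the arrays, and with these scalings the difference of Ctla2b was 7.43 to 7.77 and that of Ctla2a up to 7.14. Ctla2a and Ctla2b are paralogs, and neither their transcript nor their probe sequences were compared here, so their signals cannot be assumed to be separate.

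The cathepsins differed much less between the cell types, and Ctsb was the only one of the 4 probes called. A call needed at least a 1.5-fold difference and, in limma, a p no higher than 0.05 after Benjamini-Hochberg adjustment. Of all features 41.9% met both, 16.2% upwards and 25.7% downwards, or 3063 and 4854 features. This split was 4141 and 2282 after quantile normalization, 4674 and 1911 with arrays at the same median, and 7582 and 1037 on the olfactory receptor scale. Ctsb, cathepsin B, had 7.50, 7.29 and 7.56 in platelets with CTC41.5G-EVs, CTC41-EVs and PBS, against 5.90, 5.87 and 5.84 in progenitors. The groups did not overlap, and the difference was 1.58 with SE 0.13, or 3.00-fold (limma, adjusted p = 4.37e-05).

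Ctss, cathepsin S, an enzyme of antigen-presenting cells, had 5.36, 5.69 and 5.80 in platelets, against 4.96, 4.91 and 5.23 in progenitors. Every platelet array lay above every progenitor array, but the difference of 0.58 (SE 0.10, limma adjusted p = 0.0016) fell just short of 1.5-fold and was not called. The Ctsd/Ifitm10 probe had 5.91, 5.82 and 5.69 in platelets, against 5.29, 5.21 and 5.24 in progenitors. It too showed no overlap, with a difference of 0.56 (SE 0.09, limma adjusted p = 0.00138) that was short of 1.5-fold. No overlap was common, as 78.4% of all features showed it.

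Ctsl, cathepsin L, the protease whose propeptide the Ctla2 proteins resemble, had 4.63, 4.47 and 5.00 in platelets, against 4.75, 4.48 and 4.16 in progenitors. The groups overlapped, the progenitor PBS array lay under the floor, and the difference of 0.23 (SE 0.18, limma adjusted p = 0.275) was not called. It rested on the PBS arrays, since without either of them it was -0.07. With the 3 other scalings all 4 cathepsin probes were called higher, Ctsl by 0.59 to 0.95, Ctss by 0.85 to 1.30 and Ctsd/Ifitm10 by 0.79 to 1.27. Under these scalings 21.9% to 40.2% of all features were called higher, and their median was 0.05 to 0.45. For these 3 probes a call thus depended on how the arrays were scaled, and for Ctsb, at 1.51 to 2.30 over every alternative, it did not. Ctss and the Ctsd/Ifitm10 probe were also called without either PBS array, at 0.59 and 0.61, and Ctss without either CTC41.5G-EVs array, at 0.67.

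Among the other cathepsins listed, genes were called both higher and lower. Of 10 such genes, all on the arrays, 7 reached the floor, of which 2 rose, 2 fell and 3 were not called. Over all features 16.2% rose and 25.7% fell. The median was 0.12 over these 7 and -0.01 over all 10, where all features tested had -0.26. Ctsz, cathepsin Z, stood at 7.82 ± 0.38 in platelets and 5.68 ± 0.19 in progenitors, a difference of 2.14 with SE 0.13, and Ctse, an aspartic protease, rose by 1.22 with SE 0.09. Ctsg, the serine protease cathepsin G of neutrophil granules, fell to 4.17 ± 0.07 in platelets, against 5.87 ± 0.16 in progenitors (-1.71, SE 0.10), beside the lower neutrophil markers given above, whose part in it was not tested. Ctsw, a cathepsin of cytotoxic lymphocytes, fell by 0.63 (SE 0.09) as deposited, but was called under none of the other scalings and stood 0.09 above progenitors on the olfactory receptor scale. Without either CTC41.5G-EVs array its difference of -0.58 was no longer called. In limma the adjusted p of these 4 genes was at most 0.000546. Under the 3 other scalings 2, 2 and 4 genes of the list rose and 1 fell in each, where 21.9% to 40.2% of all features rose and 5.49% to 12.1% fell.

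Of 17 other inhibitors, cystatins, stefins and serpins, 14 were on the arrays and 9 reached the floor. As deposited 2 rose and 2 fell, where 16.2% of all features rose and 25.7% fell. The median was 0.27 over these 9 and -0.11 over all 14, so its sign depended on the floor, and all features tested had -0.26. Under the other scalings 3 to 6 rose and 0 to 1 fell, where 21.9% to 40.2% of all features rose and 5.49% to 12.1% fell. Cst3, cystatin C, a secreted inhibitor of cysteine cathepsins, stood at 9.90 ± 0.35 in platelets and 6.59 ± 0.20 in progenitors, a difference of 3.31 with SE 0.18 (9.91-fold, limma adjusted p = 8.86e-06). Serpinb6a, an intracellular serpin, rose by 2.29 with SE 0.16. Spink2, an inhibitor of serine proteases, fell by 1.01 (SE 0.09), and Cst6, cystatin E/M, fell by 0.77 (SE 0.11). The call of Cst6 was lost under all 3 other scalings, and that of Spink2 on the olfactory receptor scale.

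Of 27 genes of lysosome biogenesis, sorting and membrane, 24 were on the arrays and 23 reached the floor, of which 12 rose, 0 fell and 11 were not called. Over all features 16.2% rose and 25.7% fell. The median was 0.70 over these 23 and 0.48 over all 24. Under the other scalings 13 to 16 rose and 0 fell, where 21.9% to 40.2% of all features rose. The membrane proteins Lamp2 and Lamp1 rose by 4.87 (SE 0.14) and 3.43 (SE 0.15). Laptm5, a lysosomal membrane protein of blood cells, rose by 2.58 (SE 0.16), Hexa, a subunit of hexosaminidase, by 2.53 (SE 0.15), and Sort1, a sorting receptor, by 1.86 (SE 0.14). The limma adjusted p of these 5 was at most 3.45e-05.

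**Figure D2:**
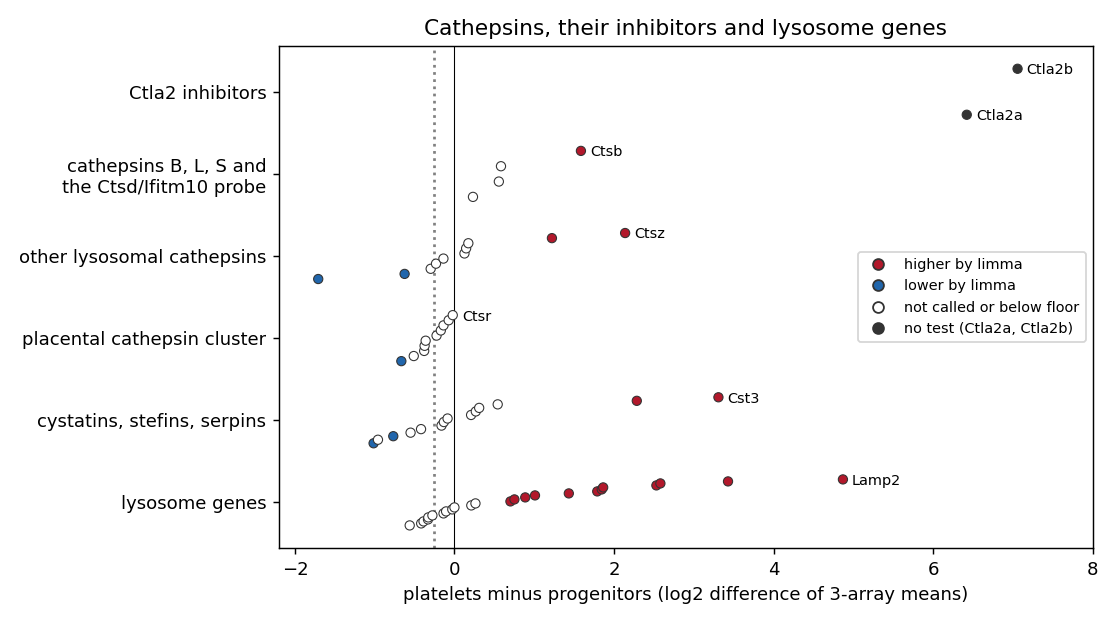
Log2 difference between the means of platelets and progenitors for every measured gene of 6 lists, with the highest gene of each list named and both genes of the first. Colours give the limma call, and the dotted line is the median of all features tested, -0.26. Ctla2a and Ctla2b lie to the right of every other gene drawn, the next being Lamp2 at 4.87.

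Among the neighbours of Ctla2a and Ctla2b on chromosome 13 that reached the floor, 2 were called higher in platelets, 1 lower and 1 was not called. Over all features 16.2% were called higher and 25.7% lower. The 9 neighbours drawn, 4 protein-coding genes on either side and Tpbpb between, all had a probe, and 4 reached the floor. The trophoblast genes Tpbpb and Tpbpa, on either side of Ctla2a, had at most 4.04 and 4.30 in platelets, against at most 4.31 and 4.30 in progenitors. Ctsj, Ctsq and Ctsr, cathepsins of the placenta, lay under the floor on all arrays. The gene next to Ctla2b on the other side, 4930486L24Rik, had 8.90, 8.32 and 8.78 in platelets, against 4.20, 4.38 and 4.20 in progenitors. Its difference of 4.41 (SE 0.17, limma adjusted p = 2.50e-06), with no overlap, was 21.2-fold, and it was 4.26 to 5.12 under every alternative. Its progenitor mean of 4.26 lay close to the floor. Further out, Dapk1, a kinase of cell death pathways, rose by 0.80 (SE 0.09, limma adjusted p = 0.000213). Between these genes, Ctsll3 had a difference of -0.67 and was called lower, and BC051665, at -0.51, was not called.

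**Figure D3:**
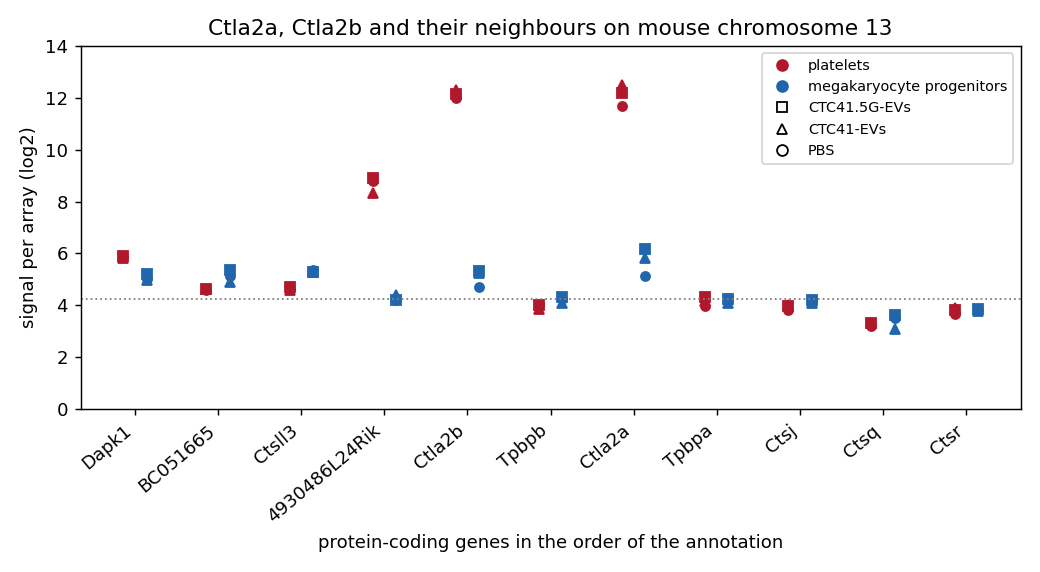
Log2 signal on each array of 11 protein-coding genes in the order of the annotation of chromosome 13, platelets in red left of progenitors in blue. The dotted line is the floor of 4.23. Ctla2b, Ctla2a and, at 8.32 to 8.90, 4930486L24Rik stand out in platelets, with Tpbpb between the Ctla2 genes near 4.

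Of the placental cathepsin list, 11 genes of this chromosome region, 10 were on the arrays and 3 reached the floor. Ctsll3 fell by 0.67 (SE 0.08, limma adjusted p = 0.000284) as deposited, but was not called under the other scalings, and its difference was 0.05 on the olfactory receptor scale.

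The genes with the profiles nearest to Ctla2a and Ctla2b over the 6 arrays were then listed. Likeness was the root mean square distance between profiles, each centred on its own mean. This distance rests largely on the gap between the cell types, by which both genes were chosen, so the list is a description only. Ppbp, Clec1b and P2ry12 had gaps of 6.94, 6.78 and 6.63, beside 7.06 for Ctla2b. The 5 nearest to Ctla2b were Ppbp, a chemokine precursor (0.23), Clec1b, the receptor CLEC-2 (0.24), Rgs18, a regulator of G protein signalling (0.31), P2ry12, an ADP receptor (0.32), and Ctla2a (0.37). Nearest to Ctla2a were Pf4, platelet factor 4 (0.29), B2m, beta-2 microglobulin (0.32), Gm4202 (0.36), Ppbp (0.37) and Ctla2b (0.37). Pearson's r was 0.996 or more for each of these over the 6 arrays, which share the gap between the cell types. By this distance each Ctla2 gene ranked 5 for the other.

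**Figure D4:**
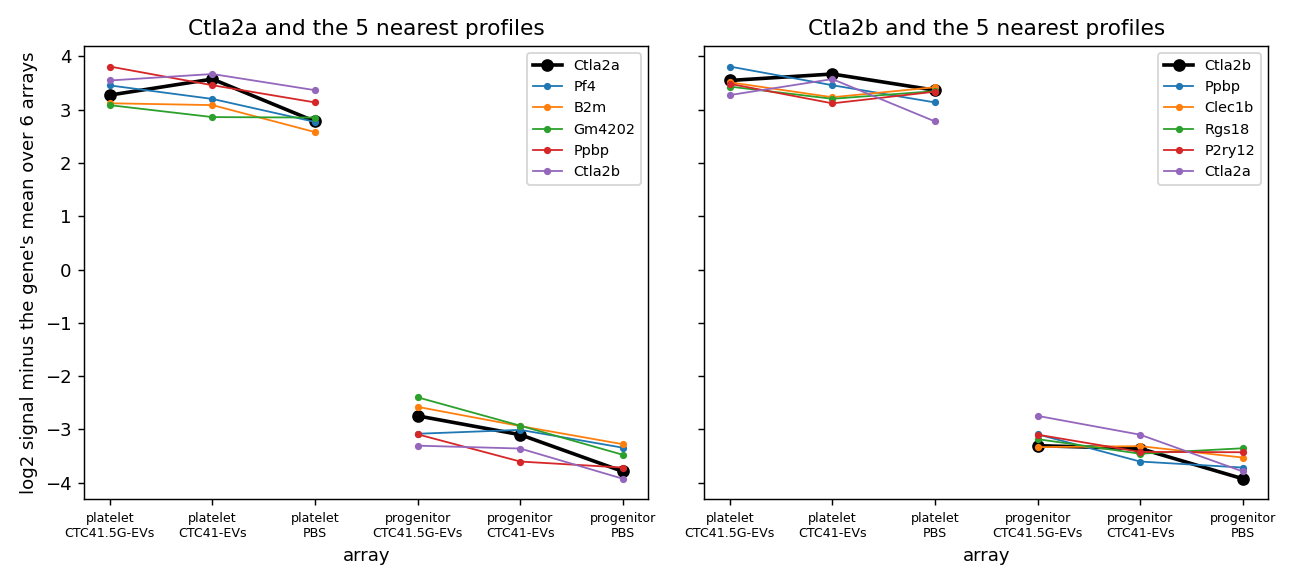
Log2 signal minus the gene's mean over the 6 arrays, for Ctla2a (left) and Ctla2b (right) in black and the 5 genes with the nearest profile in colour. Lines join the 3 arrays of a cell type. Among platelet arrays Ctla2a was highest with CTC41-EVs, at 12.48, while its nearest gene Pf4 was highest with CTC41.5G-EVs, at 13.04.

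The EV arrays were then set against the PBS array of the same cell type, 1 array against 1, which allows no test. Both EV comparisons of a cell type share its PBS array. Ctla2a and Ctla2b were higher on all 4 EV arrays than with PBS, the only 2 of the 6 members for which this held, where 14.5% of all features showed it. Under the other scalings it held for the same 2 members, and for 9.47% to 10.3% of features. As deposited it also held for Pf4, B2m, Gm4202 and Ppbp, named above as nearest to Ctla2a. It did not hold for Clec1b, Rgs18 and P2ry12, named as nearest to Ctla2b. The rule chose Ctla2a with 1 of its 4 differences known, so nothing is read from the count.

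In progenitors Ctla2a was higher than with PBS by 1.04 with CTC41.5G-EVs (2.06-fold) and by 0.69 with CTC41-EVs (1.61-fold). It ranked 45th and 178th of the 10859 genes with a progenitor mean of at least 5.07, the 75th percentile over all probes. Of these genes, 5.47% were at least 1.5-fold higher and 0.746% lower with CTC41.5G-EVs, and 3.09% higher and 0.101% lower with CTC41-EVs. Ctla2b, whose mean of 5.09 lay just above that floor, was higher by 0.62 and 0.57. Its PBS array, at 4.69, lay under the floor, so it was kept only through the EV arrays. The difference of 0.62 passed 1.5-fold as deposited, but was 0.55 to 0.56 and did not under the other scalings. CTC41.5G-EVs minus CTC41-EVs was 0.35 for Ctla2a and 0.05 for Ctla2b, the second of which was -0.01 under each other scaling. In that comparison 0.608% of genes were at least 1.5-fold higher and 0.783% lower.

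In platelets Ctla2a was higher than with PBS by 0.49 with CTC41.5G-EVs and by 0.79 with CTC41-EVs (1.73-fold). Of 8248 genes over the same floor, 0.643% and 0.449% were at least 1.5-fold higher in these comparisons and 1.31% and 2.34% lower, and Ctla2a ranked 130th and 15th. Ctla2b was higher by 0.18 and 0.30, short of 1.5-fold, the first of which was 0.02 after quantile normalization. Ctla2a and Ctla2b differed by -0.30 and -0.12 between CTC41.5G-EVs and CTC41-EVs, where 0.885% of genes were at least 1.5-fold lower. After quantile normalization the value of Ctla2a was -0.59, past 1.5-fold.

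**Figure D5:**
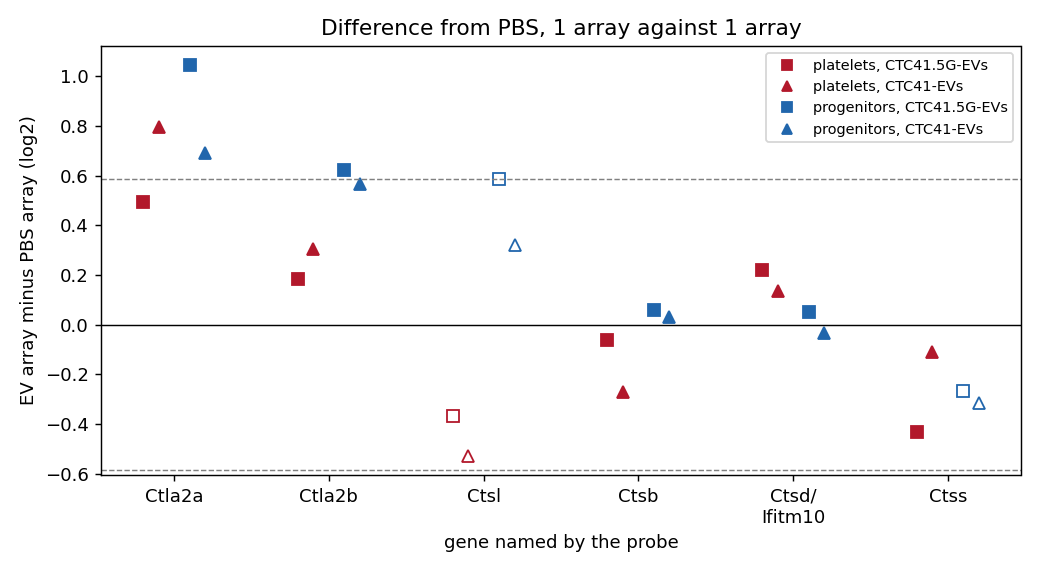
Log2 difference of each EV array from the PBS array of its cell type for the 6 members, platelets in red and progenitors in blue. Open symbols are genes under the floor of 5.07 in that cell type, and dashed lines mark 1.5-fold. Ctla2a and Ctla2b lie above 0 in all 4 comparisons, Ctss below 0 in all 4, and Ctsl on opposite sides in the 2 cell types.

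Marker lists of 8 cell types were set beside these differences on the same progenitor arrays. Over all 30143 features, 69.7% were higher than with PBS on the CTC41.5G-EVs array and 52.8% on the CTC41-EVs array, with medians of 0.09 and 0.01, so a count is read against these shares. Of 11 megakaryocyte and platelet markers, 9 and 7 were higher, with medians of 0.17 and 0.09 and a summed linear signal of 598, 572 and 543 with CTC41.5G-EVs, CTC41-EVs and PBS. Of 10 mast cell and basophil markers, 8 and 7 were higher, with medians of 0.18 and 0.20 and summed signals of 652, 705 and 554. Of 10 neutrophil markers, 9 and 5 were higher, with medians of 0.10 and 0.04 and summed signals of 1971, 1976 and 1745. Of 9 stem and progenitor markers, 9 and 5 were higher, with medians of 0.21 and 0.07 and summed signals of 343, 309 and 292. Of 9 monocyte and macrophage markers, 7 and 5 were higher, with summed signals of 336, 311 and 300. Endothelial markers were higher in 7 and 3 of 8, with summed signals of 221, 200 and 211. T and NK cell markers were higher in 5 and 4 of 8, with summed signals of 356, 339 and 330. Erythroid markers were higher in 4 and 3 of 7, with summed signals of 217, 211 and 209. No marker stood at 0, since array signals carry background, and 2 of the 11 megakaryocyte and 3 of the 10 mast cell and basophil markers had a progenitor mean under 4.23. The part of these cells in the Ctla2 differences was not tested.

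In platelets the 11 megakaryocyte and platelet markers were all higher with CTC41.5G-EVs than with PBS (median 0.39), and 2 were higher and 9 lower with CTC41-EVs (median -0.16). Over all features 52.7% and 52.9% were higher. With CTC41-EVs the 2 higher markers were Pf4, by 0.43, and Ppbp, by 0.32. The summed linear signal of the list was 24533, 19095 and 17146 with CTC41.5G-EVs, CTC41-EVs and PBS. With CTC41-EVs the sum was above PBS although 9 of the 11 markers were lower, since Pf4 and Ppbp have the highest signals of the list. The part of platelet content in the Ctla2 differences was not tested.

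The cathepsins differed little between treatments, with none past 1.5-fold above the floor. Ctsb was lower than with PBS by values of -0.06 with CTC41.5G-EVs and -0.27 with CTC41-EVs in platelets, and higher by 0.06 and 0.03 in progenitors, where the sign changed with the scaling of the arrays, down to -0.06 and -0.03. Ctss was lower on all 4 EV arrays, by -0.43 and -0.11 in platelets and -0.27 and -0.32 in progenitors, although it lay under the floor of 5.07 in progenitors. The share of all features lower on all 4 was not computed, so nothing is read from this sign. Ctsl, under this floor in both cell types, differed by -0.37 and -0.53 in platelets and by 0.59 and 0.32 in progenitors, the largest of these at 1.50-fold. The Ctsd/Ifitm10 probe differed by 0.22 and 0.13 in platelets and by 0.05 and -0.03 in progenitors, the first of which was below 0 under the 3 other scalings, down to -0.04.

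A shift common to both cell types could be tested for the cathepsins with limma. Of 18876 features, 0 (0%) were called for CTC41.5G-EVs or for CTC41-EVs against PBS, or between the EV types, with 1171, 577 and 1157 at an unadjusted p under 0.05. The lowest p among the cathepsins was that of Ctss with CTC41.5G-EVs, at -0.35 with SE 0.12 (limma, adjusted p = 0.794). The other cathepsin contrasts had adjusted p from 0.857 upwards.

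Among the other cathepsins, inhibitors and lysosome genes, 3 passed 1.5-fold above the floor in an EV comparison, all in platelets between the EV types. Ctsz, Laptm5 and Cst3 were higher with CTC41.5G-EVs than with CTC41-EVs by 0.74, 0.69 and 0.68, where 2.79% of genes were higher by 1.5-fold and 11 of 11 megakaryocyte and platelet markers were higher, with a median of 0.50. Cst3 had 10.28 with CTC41.5G-EVs, 9.60 with CTC41-EVs and 9.83 with PBS in platelets. Ctla2a and Ctla2b stood the other way round in this comparison, lower with CTC41.5G-EVs, and neither difference could be tested.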

How the data were processed

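The deposited values are log2 signals per probe, from 0.23 to 14.06. The authors used Expression Console 1.4.1.46, per the submitters' processing notes, but MAS5.0 stands in the series' design text, so how arrays were scaled is unclear. No genome build was found in the sources. Of 72688 probes, 30604 named 1 gene, and symbols were updated through GRCm38.p6 RefSeq gene identifiers. A gene with several probes took the one with the highest mean over the 6 arrays, and the Ctsd/Ifitm10 probe was kept as 1 more feature.

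Cell types were compared with limma 3.58.1 in R 4.3.3, with additive terms for cell type and treatment, 2 residual degrees of freedom and an intensity trend, over 18876 features with a mean of at least 4.23, and the procedure was tested on simulated data. EV comparisons within a cell type are single differences. P-values measure the spread between these 6 arrays only, whose small number limits precision. Alternatives tried were other scalings, other floors, cell type as the only term and leaving out each array.

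Members, gene lists and thresholds were chosen with earlier results of these data known. Named list genes are the 5 furthest up and down among those called and any past 1.5-fold in an EV comparison. Beside them stand the 5 nearest profiles and the annotation's neighbours. Marker lists covered 8 cell types.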

Additional observations from a re-analysis of the deposited data

Results flagged for a closer look

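For 2 cathepsins both EV arrays lay on one side of PBS in platelets and on the other side in progenitors. Neither difference between the cell types was tested, since each contrast is 1 array against 1. Both EV differences of a cell type share its PBS array, and the share of all features with such a pattern was not computed. Ctsl differed from PBS by -0.37 with CTC41.5G-EVs and -0.53 with CTC41-EVs in platelets, and by 0.59 and 0.32 in progenitors, at levels under the floor of 5.07 throughout. Ctsb differed by -0.0607 and -0.27 in platelets and by 0.0594 and 0.0302 in progenitors, where its sign changed with the scaling of the arrays.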

How the results depend on the processing

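The fit pairs the arrays of both cell types by treatment, and with cell type as the only term 3064 features were called higher and 4850 lower. The count of genes called higher in platelets, 3063 as deposited, was 4674 with arrays at the same median and 7582 centred on olfactory receptor genes. The count called lower, 4854, was 2282 after quantile normalization, 1911 at the same median, 1037 centred on olfactory receptor genes and 2356 with the floor at the 75th percentile. Leaving out 1 array gave 2930 to 3137 higher and 4333 to 5181 lower. For EV effects averaged over cell types, settings chosen after seeing the data left out 1 array, on 1 residual degree of freedom, and called 0 to 2 genes for either EV type against PBS and 0 to 3 for one EV type against the other.

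Reversed differences were those of Ctsl without either PBS array (-0.0687, and up to 0.409 without 1 other array) and, centred on olfactory receptor genes, of Ctsw (0.0888) and Ctsll3 (0.0479). The cause was not tested.

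Of genes past 1.5-fold in platelets, CTC41-EVs against PBS had 230, with 145 after quantile normalization, 1127 without a floor and 416 with the floor at the 50th percentile. CTC41.5G-EVs against PBS had 161, with 267 centred on olfactory receptor genes, 1055 without a floor and 361 at the 50th percentile. Between the EV types there were 303, with 183 after quantile normalization, 1397 without a floor and 545 at the 50th percentile. In progenitors, removing the floor gave 1222 genes in place of 675 for CTC41.5G-EVs against PBS, and 598 in place of 347 for CTC41-EVs against PBS. One EV type against the other gave 151, with 594 without a floor and 293 at the 50th percentile. A lower floor tests more genes.

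Ctla2a had a difference of 6.29 to 7.14 and Ctla2b of 6.94 to 7.77 between the cell types over 14 alternatives each. Other floors, the intensity trend, the treatment term and averaging of probes cannot change this difference. Leaving out either array of a treatment gives the same value. Both genes were chosen by this contrast, so the ranges are a description. Signals near background, as for Ctsl, limit what these arrays resolve.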
